A study of Mus musculus with 6 samples.

Results

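The genes described here take part in peptide presentation by MHC class I in the mouse, with classical and nonclassical heavy chains. They are the heavy chains H2-K1, H2-D1, H2-Q4, H2-Q7 and H2-T23, the light chain B2m, the peptide transporter subunits Tap1 and Tap2, the loading factor Tapbp and the regulator Nlrc5. These 10 of 32285 features were selected by symbol, and the group was chosen from measured values of the knockout against the controls in these same libraries, so that contrast is given below as a description. UMIs were counted in liver nuclei from 6 male mice aged 18 weeks, which were kept on chow and fasted overnight for 12 hours. The 3 knockout mice lacked Plvap in hepatic stellate cells, the retinoid-storing pericytes of the sinusoid, and the other 3 were littermate controls. Both groups have a source name with the allele Plvaptm1.1Salm and the transgene Tg(Lrat-cre)1Rshw, on strain C57BL/6JBomTac. Lrat-cre drives recombination from the promoter of Lrat, a gene of stellate cells. The labels do not say whether the controls carried the Lrat-cre transgene, and the mouse is the replicate throughout.

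Class I molecules show peptides from inside the cell to CD8 T cells and to inhibitory receptors of NK cells. Proteasomes cut proteins into peptides, Tap1 and Tap2 carry the peptides into the endoplasmic reticulum, and Tapbp, also called tapasin, bridges the transporter to the empty heavy chain. The heavy chain reaches the cell surface only when it holds a peptide and B2m. Transcription of these genes is induced by interferons through Irf factors, and Nlrc5 is the transactivator assembled on their SXY promoter module, in which the X2 box is a CRE-like element and the Y box an inverted CCAAT box. In the liver, sinusoidal endothelial cells and Kupffer cells are known to present antigen to passing T cells, and hepatocytes are known for low class I.

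The members lie in few places of the mm10 genome by GENCODE M21, and all are protein-coding genes. On chromosome 17, in the mouse MHC, are Tapbp (33915899 to 33929292, plus strand), H2-K1 (33996017 to 34000347, minus strand), Tap1 (34187553 to 34197225, plus strand) and Tap2 (34203527 to 34216321, plus strand). Further along chromosome 17 are H2-D1 (35262730 to 35267499), H2-Q4 (35379617 to 35385290) and H2-Q7 (35439155 to 35443773), all on the plus strand, and H2-T23 (36029773 to 36032855, minus strand). B2m is on chromosome 2 (122147686 to 122153083, plus strand) and Nlrc5 on chromosome 8 (94434356 to 94527272, plus strand).

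Promoters are shown because the members are known to share the SXY module and stood together in several nucleus classes. RefSeq promoter sequences on GRCm38.p6 matched 8 of the 10 members, and Tap2 and Nlrc5 had no entry. The 160 bases before the RefSeq start are printed 5′ to 3′ for the heavy chains and B2m, for H2-K1 from the second of its 2 entries. Capitals mark, on either strand, the CCAAT box (ATTGG where inverted), the CRE-like motif TGACG, and the ISRE-like motif, GAAA followed by any 2 bases and another GAAA, of the kind Irf factors bind.
H2-K1 promoter (chr17:34000334-34000493, minus strand): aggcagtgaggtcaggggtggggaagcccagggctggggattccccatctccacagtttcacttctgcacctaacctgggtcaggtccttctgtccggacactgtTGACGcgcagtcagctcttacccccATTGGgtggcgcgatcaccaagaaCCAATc
H2-D1 promoter (chr17:35262934-35263093, plus strand): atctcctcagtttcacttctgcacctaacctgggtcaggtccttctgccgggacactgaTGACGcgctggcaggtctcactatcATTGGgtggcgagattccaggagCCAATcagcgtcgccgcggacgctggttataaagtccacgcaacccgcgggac
H2-Q7 promoter (chr17:35438995-35439154, plus strand): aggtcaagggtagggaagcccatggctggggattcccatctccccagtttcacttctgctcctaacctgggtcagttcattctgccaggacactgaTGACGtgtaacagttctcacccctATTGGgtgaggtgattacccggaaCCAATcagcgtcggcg
H2-Q4 promoter (chr17:35379457-35379616, plus strand): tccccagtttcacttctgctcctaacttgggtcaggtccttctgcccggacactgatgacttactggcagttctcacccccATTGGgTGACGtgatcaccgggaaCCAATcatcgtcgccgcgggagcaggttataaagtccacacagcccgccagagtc
H2-T23 promoter (chr17:36032702-36032861, minus strand): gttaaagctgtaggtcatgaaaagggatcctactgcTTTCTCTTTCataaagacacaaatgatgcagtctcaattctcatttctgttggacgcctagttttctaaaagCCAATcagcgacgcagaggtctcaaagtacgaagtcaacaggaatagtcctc
B2m promoter (chr2:122147527-122147686, plus strand): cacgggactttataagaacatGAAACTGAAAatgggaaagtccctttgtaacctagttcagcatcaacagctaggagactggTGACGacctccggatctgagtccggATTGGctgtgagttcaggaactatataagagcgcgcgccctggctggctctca

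CCAAT, on either strand, was found in all 8 matched members within the window of 250 bases before to 50 bases from the start, against 37.4% of all 32851 promoters of that length. TGACG or its reverse complement was found in 6 of 8 members and in 20.8% of all promoters. ATTGG lay 23 bases before CCAAT in H2-D1 and 24 bases before it in H2-K1, H2-Q4 and H2-Q7. A gap of 23 or 24 bases between this pair occurred in 36 of all promoters (0.11%). TGACG lay 25 bases before ATTGG in H2-K1, H2-D1 and B2m and 24 bases before it in H2-Q7, and 26 of all promoters (0.0791%) had such a pair at either distance. Both spacings were defined on the members, so these shares are a description. In H2-Q4 the TGACG of the printed stretch lay just after ATTGG, and H2-T23 had CCAAT and no TGACG. The ISRE-like motif was found in H2-T23 and B2m, that is in 2 of 8 members and 3.44% of all promoters. The stretch agtttcacttct, printed for H2-K1, H2-D1, H2-Q4 and H2-Q7, does not match this strict pattern and is left unmarked. A missing match therefore does not show that a promoter lacks sites for Irf factors. GGGCGG, the SP1-like motif, was found in Tap1 and Tapbp and in 35.7% of all promoters. TTCNNNGAA, the GAS-like motif, was in none of the 8 windows and in 8.3% of all promoters. No marked motifs overlapped in the printed stretches. All motifs were searched on both strands, and a match is a match of letters, not a bound site.

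Close copies limit how surely a count belongs to one heavy chain. Of the 50-base words in the last 500 bases of each longest coding transcript, 33.7% of those of H2-Q4, 38.1% of H2-T23, 9.53% of H2-D1, 6.21% of H2-Q7 and 0.443% of H2-K1 also occurred in transcripts of other genes. The partners were H2-D1 for H2-K1 and H2-Q5 and H2-Q10 for H2-Q7, and mostly genes outside the class I family for H2-D1, H2-Q4 and H2-T23, such as Rab33b for H2-T23. B2m, Tap1, Tap2, Tapbp and Nlrc5 shared no such word. Introns were not compared, and values of H2-D1, H2-Q4, H2-Q7 and H2-T23 are uncertain to that extent.

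The libraries held 23153182 to 27199466 UMIs each, and 25646 of 27297 barcodes were kept as nuclei. Among all barcodes, 77 occurred in more than 1 library. Nuclei were clustered without the members, and each class below is a set of clusters named from marker genes, so a class name stands for nuclei like that cell type. Plvap itself, counted first as a check of the labels, had stellate cell levels of 242, 214 and 249 CPM in the controls and of 226, 179 and 152 CPM in the knockouts, so the groups overlapped. Which exons were deleted is not stated in the labels, and 3′ counts outside the deleted part would check nothing. Hepatocytes were the class in which libraries stood apart. Of the nuclei kept in the class, 98.8% of control 1 and 95.4% of knockout 2 fell in cluster 17. This cluster was led by the pericentral genes Tbx3 and Lgr5. Of knockout 1, 79.1% fell in cluster 13. Macrophages also split by library, with 82.7% of knockout 3 and 69% of control 2 nuclei in cluster 7, led by Cd163 and Vsig4, against 4.54% to 8.47% in control 1, knockout 1 and knockout 2 and 49.5% in control 3. A further 1603 nuclei with hepatocyte markers (cluster 6), 54.9% of them from control 1, were kept out of the class by a rule on leading genes. That rule counted Onecut1, which is on the cholangiocyte marker list used here. The marker score of cluster 6 was 1.71 for hepatocytes and 0.27 for plasma cells, the next class. Control 1 and knockout 2 had 1055 and 909 nuclei in clusters left unnamed, against 107 to 599 in the other mice. Hepatocyte values are therefore given with and without cluster 6. The kept class held 248 nuclei of control 1 and 195 of knockout 2, and their shares in cluster 17 do not count the excluded nuclei.

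Levels by nucleus class come first. They are CPM: the UMIs of a gene scaled to the total UMIs of the class in that mouse, with TMM factors. They are compared between classes for one gene and not between genes, since 3′ counts carry no correction for gene structure. For bulk sums over all nuclei, more nuclei of a type and more RNA per nucleus cannot be told apart.

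T/NK nuclei stood highest for 9 of 10 members, and hepatocytes lowest for 6. Among 14444 genes with at least 10 CPM in some class, 17.4% had their highest mean in T/NK nuclei. H2-K1, the classical heavy chain of the K region, had a mean of 1518 CPM in T/NK nuclei (range over 6 mice 1199 to 1908). B cells followed at 825 CPM (638 to 1125), with no overlap between these neighbours. Macrophages (475 CPM), endothelial cells (468 CPM), cholangiocytes (452 CPM) and stellate cells (368 CPM) overlapped each with the next. Hepatocytes (186 CPM, 156 to 227) lay below all mice of the stellate class, and portal mesenchymal nuclei (180 CPM, 103 to 271) overlapped hepatocytes. The T/NK mean of H2-K1 was 8.15 times the hepatocyte mean.

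H2-D1, the classical heavy chain of the D region, spanned 847 CPM in T/NK nuclei (631 to 1013) to 86.5 CPM in hepatocytes (65.6 to 97.9). The order was T/NK, B cells, macrophages, endothelial, stellate, cholangiocyte, portal mesenchymal and hepatocyte nuclei. Only B cells and macrophages were neighbours whose mice did not overlap.

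H2-Q7, a nonclassical chain of the Qa-2 family, had the steepest profile between T/NK nuclei and hepatocytes among the members. Its mean was 951 CPM in T/NK nuclei (731 to 1101), 260 CPM in B cells, 139 CPM in stellate cells, 130 CPM in endothelial cells, 31.8 CPM in hepatocytes and 26.7 CPM in macrophages (20.6 to 35.2). The T/NK to hepatocyte ratio was 29.9. Macrophages, in the third place for H2-K1 and H2-D1, held the lowest mean of H2-Q7. Within hepatocytes, H2-Q7 also differed by cluster: 14 CPM in cluster 17 against 43.3 CPM in cluster 5, 43.3 CPM in cluster 13 and 41.1 CPM in cluster 6. In cluster 11, led by Cyp2c and Cyp7a1 genes, it was 24.1 CPM. The same clusters held 177, 192, 199, 206 and 166 CPM of H2-K1, a narrower spread.

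H2-Q4, another chain of the Q region, had 439 CPM in T/NK nuclei, 204 CPM in B cells, 149 CPM in endothelial cells, 121 CPM in stellate cells and 20.3 CPM in hepatocytes. H2-T23 encodes Qa-1, the ligand of the NK receptor CD94/NKG2A. It was the exception among the heavy chains, with its highest mean in B cells (122 CPM, 80.3 to 170). Endothelial cells (106 CPM) and T/NK nuclei (100 CPM) overlapped B cells, macrophages held 76.7 CPM, and stellate cells (50.5 CPM) lay below every macrophage value.

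**Figure D1:**
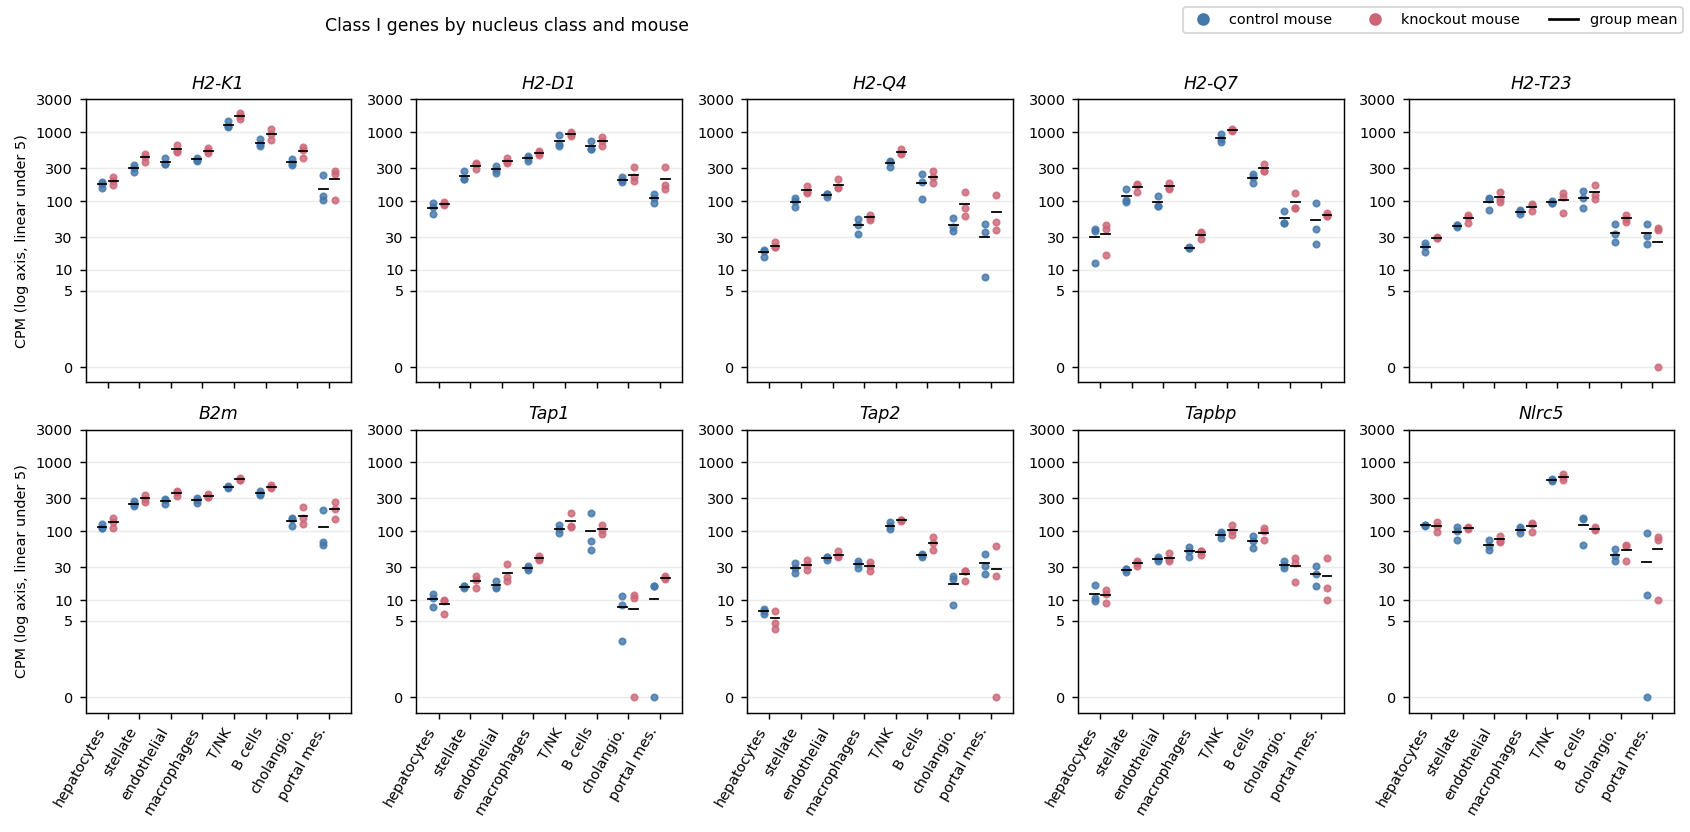
Levels of the 10 class I genes, 1 panel per gene. The y axis is CPM on a log axis (linear under 5), the x axis gives 8 nucleus classes, points are mice (blue controls, red knockouts) and lines are group means. T/NK nuclei are highest in 9 panels, and Nlrc5 is the panel in which hepatocytes (119 CPM) stand above endothelial cells (69.4 CPM).

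B2m, the invariant light chain, varied less between classes than the heavy chains of the T/NK profile. Its mean was 506 CPM in T/NK nuclei, 398 CPM in B cells, 318 CPM in endothelial cells, 303 CPM in macrophages, 276 CPM in stellate cells, 161 CPM in portal mesenchymal nuclei, 154 CPM in cholangiocytes and 125 CPM in hepatocytes. All neighbours in this order overlapped, and the T/NK to hepatocyte ratio was 4.05.

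The peptide transporter subunits followed the lymphoid profile. Tap1 had 123 CPM in T/NK nuclei and 104 CPM in B cells, 34.9 CPM in macrophages, 20.6 CPM in endothelial cells, 17.3 CPM in stellate cells, 9.51 CPM in hepatocytes and 7.69 CPM in cholangiocytes. Tap2 had 132 CPM in T/NK nuclei, 56.2 CPM in B cells, 43.2 CPM in endothelial cells and 6.14 CPM in hepatocytes, whose highest mouse (7.41 CPM) lay below the lowest cholangiocyte value (8.43 CPM). Tapbp went from 96.7 CPM in T/NK nuclei through 50.1 CPM in macrophages and 40.4 CPM in endothelial cells to 12 CPM in hepatocytes.

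Nlrc5 had another order. T/NK nuclei stood at 584 CPM (530 to 684), apart from every other class. Hepatocytes were next at 119 CPM (97.6 to 136), overlapping B cells (116 CPM), macrophages (112 CPM) and stellate cells (104 CPM), while endothelial cells had 69.4 CPM (53.1 to 86.5), below every hepatocyte value. Within the T/NK class, cluster 20, led by Lef1, Il7r and Tcf7, held 305 CPM of Nlrc5. Cluster 14, led by Cd226, Klrc2 and Themis, held 675 CPM and cluster 23, led by Ncr1 and Klra genes, 631 CPM. H2-K1 was at 1452, 1548 and 1573 CPM in clusters 20, 14 and 23. Across the 7 tested classes, Pearson's r of mean log2(CPM + 1) between pairs of the other 9 members had a median of 0.88 (0.62 to 0.99 over 36 pairs). The 9 pairs with Nlrc5 had a median of 0.58 (0.28 to 0.73). These correlations describe 7 classes from the same libraries.

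The genes most like 3 of the members over those 7 classes were taken from 12293 genes with at least 10 CPM in some class. For B2m they were Nxf1 (r = 0.99), Fnbp1, Poln, Ifi208 and Ttc14. For H2-K1 they were Prrc2c, Zbtb25, Mre11a, Rc3h1 and Gpn1. For Nlrc5 they were Rnaseh2c (r = 0.96), Smc5, Il2ra, Chordc1 and Jaml. All 15 had their highest mean in T/NK nuclei, the class that sets these patterns.

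The share of nuclei with a UMI gives the same picture at equal depth, with each nucleus thinned to 1500 UMIs. H2-K1 was found in 88.2% of T/NK nuclei, 67.7% of B cells, 52.6% of macrophages, 48.2% of endothelial cells, 43.6% of stellate cells and 25% of hepatocytes (means of 6 mice). Nlrc5 was found in 53.3% of T/NK nuclei, 16.3% of hepatocytes and 9.29% of endothelial cells. Shallower nuclei were left out, among them 68 of 285 B cells of the controls and 114 of 505 of the knockouts, and 180 of 4334 and 140 of 4359 endothelial nuclei. Before thinning, the hepatocyte share for H2-K1 was 75.4% to 83.5% over the mice. No class among these lacks class I expression, so free RNA in the droplets has no reference share here.

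**Figure D2:**
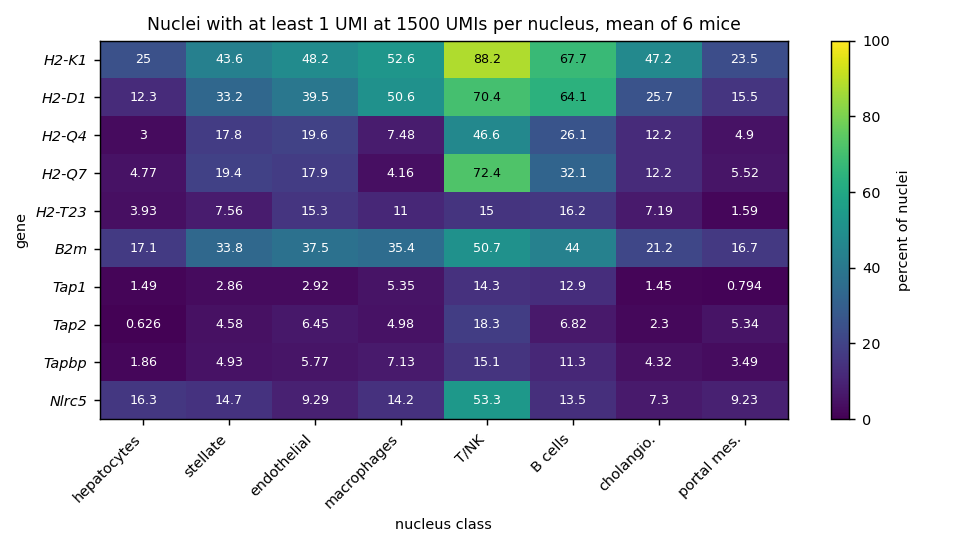
Mean share of nuclei (percent, color and number) with at least 1 UMI of each gene at 1500 UMIs per nucleus, over 6 mice, with genes in rows and nucleus classes in columns. H2-K1, H2-D1 and H2-Q7 exceed 70% in T/NK nuclei, and Tap2 is at 0.626% in hepatocytes.

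Knockouts were then set beside controls. The classes come from the same 6 mice and libraries, so like values in several classes are not independent. Of 68 pairs of a member and a class with enough counts, the fitted log2 fold change, knockout over control, was above 0 in 61. Of all genes tested, 49.1% to 50.5% per class were above 0. In 30 pairs all 3 knockouts stood above all 3 controls, and in 0 pairs below. Per class, 3.33% to 5.33% of all genes tested were all higher and 3.57% to 4.74% all lower. Because the members were chosen on this contrast, nothing is read from these counts.

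Endothelial cells held some of the largest differences. H2-K1 was at 342, 343 and 418 CPM in the controls and 518, 532 and 652 CPM in the knockouts, a log2 fold change of 0.63 (SE 0.13). Every knockout lay above every control, and knockout 3 was the highest. H2-Q7 was at 84.9, 85.2 and 119 CPM against 157, 150 and 184 CPM, a log2 fold change of 0.77 (SE 0.15), again without overlap. For H2-D1 the values were 260, 286 and 321 CPM against 361, 374 and 429 CPM (0.43, SE 0.12).

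H2-Q4 stood at 127, 115 and 129 CPM against 158, 157 and 208 CPM (log2 fold change 0.50, SE 0.13), with knockout 3 apart from the other two. B2m stood at 288, 248 and 296 CPM against 320, 380 and 375 CPM (0.37, SE 0.11). Tap1 had 18.8, 15 and 15.6 CPM against 19.2, 21.7 and 33.2 CPM (0.58, SE 0.22). The Tap1 difference rested largely on knockout 3, and its log2 fold change was 0.31 without that mouse.

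The other 4 members overlapped between the groups in endothelial cells. H2-T23 had 74.1, 111 and 107 CPM in controls and 96.5, 109 and 138 CPM in knockouts (log2 fold change 0.23, SE 0.18). Tap2, Tapbp and Nlrc5 had log2 fold changes of 0.14, 0.06 and 0.28. The median over the 10 members was 0.40, against -0.0021 over all 12988 genes tested, of which 49.6% were above 0. In 6 of 10 members the knockouts were all higher, against 5.33% of genes tested. By edgeR's quasi-likelihood test with Benjamini-Hochberg adjustment 0 of 10 passed and 0% of genes did, while 6 members and 4.27% of genes had an unadjusted p under 0.05. DESeq2 called 2 members, H2-K1 and H2-Q7, among 20 of the 12988 genes.

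In each of the 5 endothelial clusters the groups did not overlap for H2-K1, H2-D1, H2-Q4, H2-Q7 and B2m, on CPM of the cluster's own total. H2-T23, Tap1, Tap2 and Nlrc5 overlapped in most of these clusters and Tapbp in all. The clusters come from the same mice, and the share of all genes without overlap was not computed within them. Nothing further is read from this. In cluster 10, led by Robo4, Plxnd1 and Rasip1, H2-K1 was 501 to 550 CPM in the controls and 865 to 1108 CPM in the knockouts. In cluster 3, led by Wnt2, Wnt9b and Kit, it was 293 to 387 CPM and 455 to 575 CPM. Cluster 1, led by Efnb2 and Ntn4, had 306 to 438 CPM and 557 to 692 CPM. Vessel-like nuclei of cluster 15, led by Vwf and Bmx and kept out of the class, had 376 to 552 CPM and 649 to 694 CPM.

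Free or foreign RNA was checked by marker lists. In endothelial nuclei the summed level of 12 T/NK markers was 11.9 to 13 CPM in the controls and 11.1 to 13.4 CPM in the knockouts, against at least 11873 CPM in T/NK nuclei. The 10 B cell markers summed to 224 to 330 CPM and 283 to 355 CPM, and the 12 macrophage markers to 2260 to 3366 CPM and 2326 to 3395 CPM. The 12 hepatocyte markers summed to 932 to 1208 CPM in the controls and 1284 to 1853 CPM in the knockouts, without overlap, and 1 of the 12 was higher in all knockouts. No marker of these lists was at 0 in endothelial nuclei. Hepatocyte marker sums were also higher without overlap in macrophages (584 to 707 against 894 to 1190 CPM), T/NK nuclei (995 to 1427 against 1652 to 2183 CPM) and B cells (1145 to 1459 against 1957 to 2458 CPM). Members other than Nlrc5 had lower means in hepatocytes than in endothelial cells. The part of hepatocyte RNA in the differences was not tested.

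Stellate cells, the cell type of the deletion, had all 10 fold changes above 0. H2-K1 was at 306, 266 and 334 CPM in the controls and 374, 434 and 492 CPM in the knockouts (log2 fold change 0.52, SE 0.14), and the groups did not overlap. H2-Q4 had 110, 83.1 and 99.4 CPM against 135, 133 and 165 CPM (0.57, SE 0.14). H2-D1 had 211, 209 and 277 CPM against 291, 341 and 356 CPM (0.51, SE 0.14).

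H2-T23 (0.35, SE 0.14) and Tapbp (0.32, SE 0.15) completed the 5 members without overlap, against 4.78% of 12029 genes tested. H2-Q7 overlapped through control 3 (153 CPM) and knockout 2 (134 CPM). B2m overlapped as well, at 252, 232 and 273 CPM against 266, 298 and 335 CPM. So did Tap1, Tap2 and Nlrc5, with log2 fold changes of 0.27, 0.14 and 0.22. The median was 0.34 against -0.0017 over all genes. In edgeR 0 members passed, beside 0.0499% of genes; 5 members had an unadjusted p under 0.05, beside 4.03% of genes, and DESeq2 called 0. In stellate clusters 4 and 8 taken alone, H2-K1 was 272 to 315 against 366 to 479 CPM and 259 to 333 against 384 to 536 CPM. Hepatocyte marker sums overlapped in this class (1378 to 2160 against 1711 to 2676 CPM), as did T/NK marker sums (11.5 to 35.4 against 12.7 to 20.7 CPM).

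Macrophages had 8 of 10 fold changes above 0 and 5 members without overlap, beside 4.68% of 12049 genes. H2-K1 stood at 402, 385 and 430 CPM against 505, 542 and 584 CPM (log2 fold change 0.42, SE 0.11). H2-Q7, low in this class, stood at 21.6, 20.8 and 20.6 CPM against 33.9, 35.2 and 28 CPM (0.62, SE 0.15). Tap1 stood at 27.7, 28.9 and 31.6 CPM against 39.1, 43.9 and 38.4 CPM (0.46, SE 0.14). These 3 genes were the clearest of the class, with every knockout above every control.

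H2-D1 (0.24, SE 0.11) and B2m (0.22, SE 0.11) were the other members without overlap in macrophages. H2-Q4, H2-T23 and Nlrc5 overlapped, with log2 fold changes of 0.38, 0.25 and 0.17, as did Tap2 and Tapbp, with -0.10 and -0.05. The median was 0.25, against 0.0024 over all genes. By edgeR 0 of 10 passed and 0% of genes did; 3 members had an unadjusted p under 0.05, beside 3.31% of genes, and DESeq2 called 0. Because the libraries differed in their macrophage clusters, values inside them are given: H2-K1 was 413 to 531 CPM in controls and 523 to 912 CPM in knockouts in cluster 0, with overlap, and 290 to 361 CPM against 396 to 551 CPM in cluster 7, without overlap. H2-Q7 overlapped in cluster 0 (20.8 to 36.6 against 35.7 to 56.1 CPM) and did not in cluster 7. B2m overlapped in cluster 7 (243 to 332 against 293 to 430 CPM) and did not in cluster 0. Tap1 overlapped in both, at 27.3 to 43.1 against 38.2 to 70.7 CPM and 22.1 to 37.4 against 35 to 57 CPM. H2-D1 also overlapped in both.

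**Figure D3:**
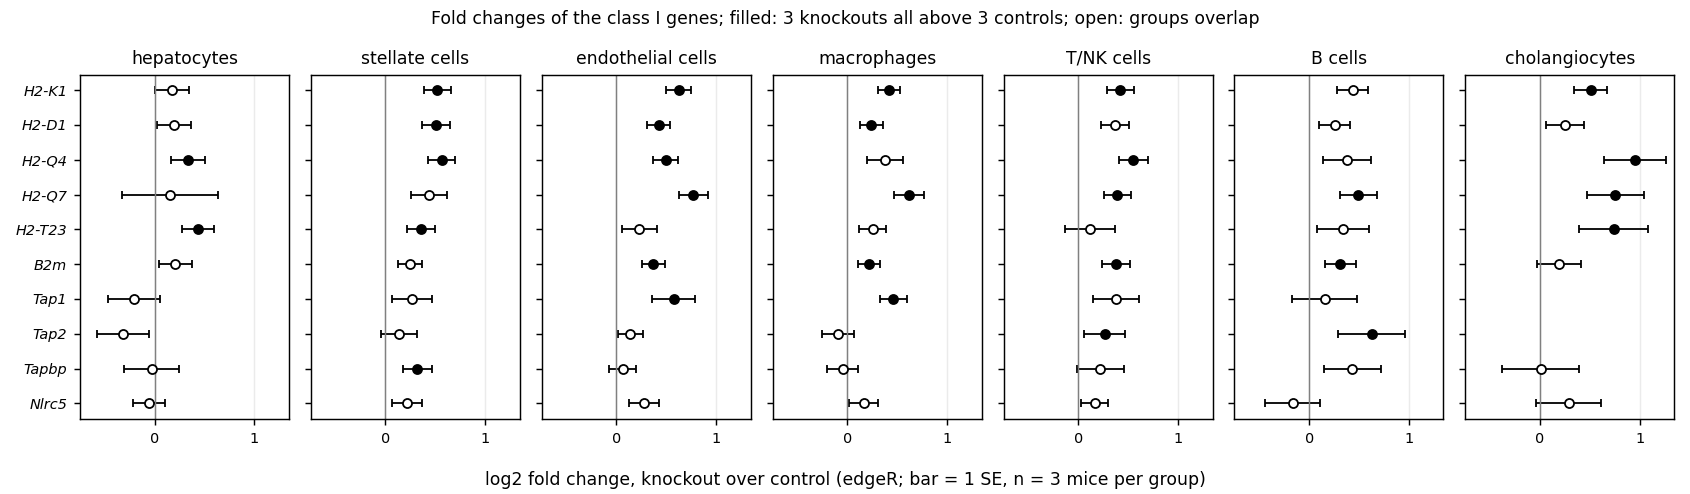
Log2 fold change of each member, knockout over control, in 7 classes (x axis; bars 1 SE, n = 3 mice per group), with genes on the y axis. Filled points are members whose 3 knockouts all lie above the 3 controls, 30 of the 68 pairs, beside 3.33% to 5.33% of all genes tested per class. Endothelial H2-Q7 is at 0.77 and cholangiocyte H2-Q4 at 0.96.

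T/NK nuclei, where the members were most abundant, had all 10 fold changes above 0. H2-K1 was at 1199, 1468 and 1229 CPM in the controls and 1577, 1728 and 1908 CPM in the knockouts (log2 fold change 0.42, SE 0.13). H2-Q4 was at 318, 374 and 377 CPM against 480, 507 and 578 CPM (0.55, SE 0.15). H2-Q7 was at 731, 954 and 789 CPM against 1051, 1082 and 1101 CPM (0.39, SE 0.14), and B2m at 446, 427 and 449 CPM against 562, 603 and 553 CPM (0.38, SE 0.14). Together with Tap2 these were 5 members without overlap, beside 5.22% of 6457 genes.

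H2-D1 (log2 fold change 0.37) overlapped through control 2 (922 CPM). H2-T23, Tap1 and Tapbp overlapped too, with 0.12, 0.38 and 0.22. Nlrc5 had 565, 530 and 558 CPM against 684, 611 and 557 CPM in T/NK nuclei (0.16, SE 0.14). No member (0 of 10) passed in edgeR, beside 0.0155% of genes; 5 members had an unadjusted p under 0.05, beside 4.31% of genes, and DESeq2 called 0. T/NK nuclei numbered 126 to 177 per control and 148 to 191 per knockout. In cluster 20, the Lef1 cluster, H2-K1 overlapped (880 to 1635 against 1573 to 1695 CPM), and in cluster 14 it did not (1199 to 1408 against 1571 to 1943 CPM).

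B cells had 9 of 10 fold changes above 0 and 3 members without overlap, beside 4.93% of 4887 genes. H2-Q7 was at 183, 248 and 223 CPM against 278, 274 and 352 CPM (log2 fold change 0.49, SE 0.19), B2m at 379, 350 and 335 CPM against 419, 439 and 465 CPM, and Tap2 at 46.8, 42.3 and 44.6 CPM against 54.2, 67.6 and 81.9 CPM. H2-K1 was at 668, 804 and 638 CPM against 784, 933 and 1125 CPM (0.44, SE 0.16), with overlap. H2-D1, H2-Q4, H2-T23, Tap1 and Tapbp also overlapped, with 0.26, 0.38, 0.34, 0.16 and 0.43. Nlrc5 was the member with a fold change under 0 (-0.17, SE 0.28). The edgeR test called 0 members, beside 0.0614% of genes; 2 members had an unadjusted p under 0.05, beside 4.28% of genes, and DESeq2 called 0.

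Cholangiocytes gave 8 members enough counts, all with fold changes above 0. H2-K1 was at 363, 341 and 417 CPM against 423, 554 and 613 CPM (log2 fold change 0.51, SE 0.16). H2-Q4 was at 57.6, 42.1 and 36.9 CPM against 61.7, 79.6 and 134 CPM (0.96, SE 0.31), from 147 UMIs in all, and was 0.62 without knockout 3. H2-Q7 (0.76, SE 0.29) and H2-T23 (0.74, SE 0.35) also had no overlap, which makes 4 members beside 4.32% of 6625 genes. H2-D1, B2m, Tapbp and Nlrc5 overlapped, with fold changes of 0.25, 0.19, 0.01 and 0.29. With edgeR 0 of 8 passed, as did 0% of genes; 4 members had an unadjusted p under 0.05, beside 4.32% of genes, and DESeq2 called 0. Tap1 and Tap2 fell under the filter, with 19 and 43 UMIs. Portal mesenchymal nuclei numbered 12 in knockout 3 and 13 in control 3 and were not tested.

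Hepatocytes had smaller and mixed values. H2-K1 was at 156, 177 and 192 CPM in the controls and 193, 173 and 227 CPM in the knockouts (log2 fold change 0.18, SE 0.17), with overlap. H2-T23 was at 22.5, 18.5 and 24.3 CPM against 29.1, 28.8 and 30.3 CPM (0.44, SE 0.16), and H2-Q4 at 19, 19.6 and 15.4 CPM against 21.4, 21.3 and 25.1 CPM (0.34, SE 0.17). These 2 members were without overlap, beside 3.33% of 13512 genes.

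H2-Q7 in hepatocytes split by library and not by group: control 1 (12.8 CPM) and knockout 2 (16.4 CPM) stood far under the other 4 mice (37.4 to 44.6 CPM). Those were the mice whose nuclei kept in the class fell mostly in cluster 17. H2-D1 and B2m overlapped, with fold changes of 0.19 and 0.21, and Tap1, Tap2, Tapbp and Nlrc5 had -0.21, -0.32, -0.03 and -0.05. The median of the members was 0.17, with 6 of 10 above 0. Leaving out 1 mouse moved it between 0.076, without knockout 3, and 0.24, without knockout 2, and it was 0.087 without control 1. With nuclei thinned to 1500 UMIs and 9 members tested it was 0.026. H2-K1 had a fold change of 0.06 without knockout 3. By edgeR 0 of 10 passed and 0% of genes did; 1 member had an unadjusted p under 0.05, beside 2.37% of genes, and DESeq2 called 0.

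With the 1603 nuclei of cluster 6 included, hepatocyte H2-Q7 was at 33.5, 39.5 and 37.1 CPM against 39.3, 33 and 44.2 CPM, and control 1 and knockout 2 no longer stood apart. H2-T23 was then at 19.1, 18.3 and 24.1 CPM against 28.8, 36.6 and 30.1 CPM (log2 fold change 0.64, SE 0.17). H2-K1 was at 182, 175 and 190 CPM against 192, 190 and 225 CPM (0.15, SE 0.14), with the highest control at 190.1 and the lowest knockout at 190.3 CPM. H2-Q4 overlapped in this setting, through control 1 (23.4 CPM) and knockout 1 (21.2 CPM). Nlrc5 stayed at a fold change near 0 (-0.06, SE 0.15).

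Sums over all nuclei gave 10 fold changes above 0. H2-K1 was at 302, 279 and 323 CPM against 402, 406 and 495 CPM (log2 fold change 0.53, SE 0.13) and H2-Q7 at 66.9, 65.8 and 80.3 CPM against 117, 96.1 and 122 CPM (0.65, SE 0.14). Nlrc5 was at 127, 87.1 and 115 CPM against 125, 120 and 107 CPM (0.10, SE 0.16). In all, 8 of 10 members were without overlap, beside 4.04% of 18265 genes. By edgeR 0 of 10 passed, beside 0.0109% of genes; 7 members had an unadjusted p under 0.05, beside 3.19% of genes, and DESeq2 called 0. The class shares moved with this sum: T/NK nuclei were 3.54%, 2.7% and 3.63% of the nuclei in the controls, and 4.32%, 3.63% and 4.43% in the knockouts. B cells made up 2.4%, 1.56% and 2.61% against 3.17%, 3.41% and 5.72%. The part of these shares in the sum over all nuclei was not tested, and the values per class above are taken within each class.

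**Figure D4:**
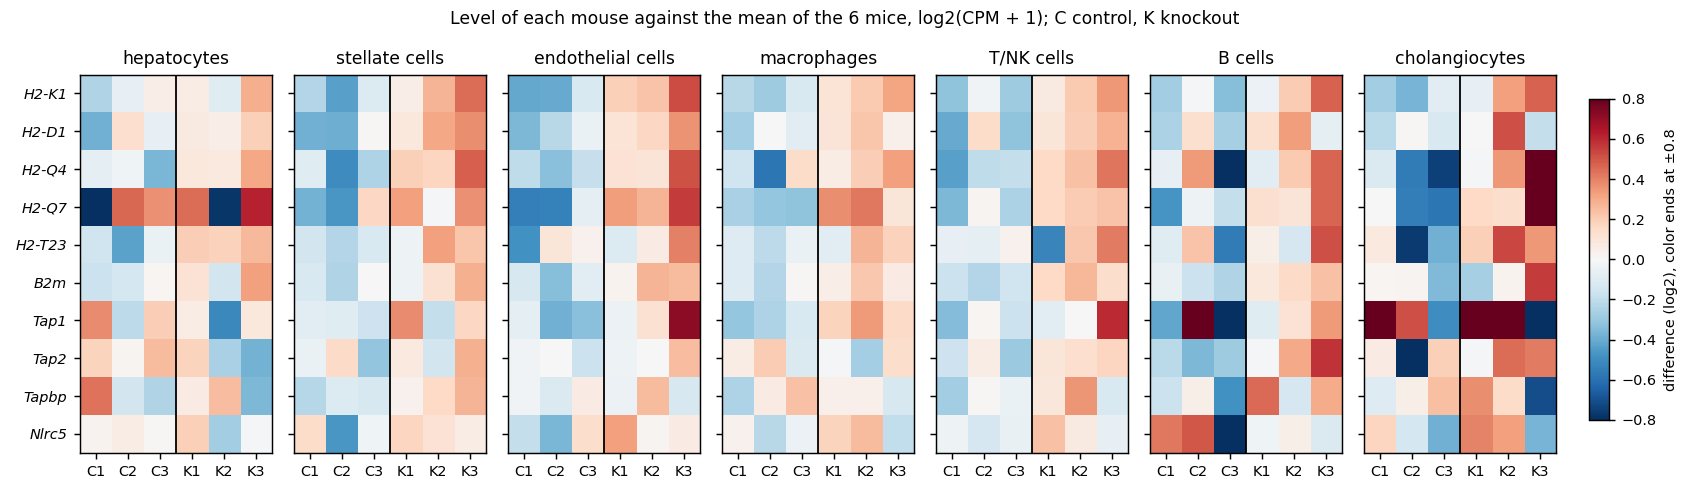
Level of each mouse (C1 to C3 controls, K1 to K3 knockouts) against the mean of the 6 mice on the log2(CPM + 1) scale, by gene (rows) and class (panels). Red is above and blue below the mean, and colors end at a difference of 0.8. Knockout 3 is the highest mouse in 39 of the 70 rows, and hepatocyte H2-Q7 is low in control 1 and knockout 2.

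One mouse weighed on many of these values. Over 7 classes and 10 members, knockout 3 was the highest mouse in 39 of 70 cases, knockout 2 in 15 and knockout 1 in 9, and the controls in 7 together. Without knockout 3 the endothelial log2 fold change of H2-K1 was 0.51 and that of H2-Q7 0.68. The share of nuclei with a UMI, thinned to 1500 UMIs, comes from the same UMIs and mice and is no separate support. Its like over all genes was not computed. H2-K1 was found in 37.5% to 44.4% of endothelial nuclei per control and 53% to 59.8% per knockout. In stellate nuclei the shares of H2-K1 were 34.4% to 41.6% against 47.7% to 50.1%. At least 2 members were found together in 52.4% to 58.8% of thinned endothelial nuclei per control and 68.4% to 75.6% per knockout. In hepatocytes these shares overlapped, at 16.8% to 21.4% and 20.2% to 24.5%.

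Whether the knockout effect differed between hepatocytes, stellate cells, endothelial cells and macrophages was fitted as a class by genotype term. For the 6 pairs of these classes, 0 members passed by edgeR after Benjamini-Hochberg adjustment, and 3 of 60 terms had an unadjusted p under 0.05. Of all genes, 2 of 13803 passed between hepatocytes and stellate cells. Between stellate and endothelial cells 1 of 13822 passed, and between stellate cells and macrophages 1 of 13825. In the remaining pairs 0 passed. The share of all genes with an unadjusted p under 0.05 was not computed for these terms, so nothing is read from the 3. A smaller hepatocyte value is therefore not shown to differ from the endothelial one.

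The wider pathway was taken from 5 lists, of which 84 of 87 genes were in the features. By edgeR 0 passed in either direction in any class, of 64 tested in endothelial cells, 61 in stellate cells, 67 in macrophages, 59 in hepatocytes, 57 in T/NK nuclei, 44 in B cells and 34 in cholangiocytes. At an unadjusted p under 0.05 there were 7, 6, 7, 3, 4, 2 and 1, in the same order, beside 4.27%, 4.03%, 3.31%, 2.37%, 4.31%, 4.28% and 4.32% of all genes tested, and DESeq2 also called 0. All adjusted p were at least 0.99.

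Other class I and class I-like heavy chains include close relatives of the members. H2-Q6, which neighbours H2-Q7, had a like class profile, with 520 CPM in T/NK nuclei, 270 CPM in B cells, 71.4 CPM in endothelial cells and 8.51 CPM in macrophages. Its endothelial levels were 57.9, 35.5 and 71.8 CPM in control mice against 85.7, 78.2 and 99.4 CPM (log2 fold change 0.68, SE 0.23). H2-T22 had 49.5, 47.7 and 49.9 CPM against 58.8, 67.2 and 79.3 CPM there (0.48, SE 0.13). Both H2-Q6 and H2-T22 share 3′ words with other genes, 35.9% and 59.2%, for H2-T22 all with H2-T10.

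H2-Q10, a secreted chain known as a liver product, had another profile, with 434 CPM in hepatocytes (305 to 555) and 22.5 to 70.7 CPM as means of the other classes. Its hepatocyte values overlapped between groups (326, 427 and 502 against 555, 305 and 487 CPM, adjusted p = 1.00 by edgeR). Cd1d1, which presents lipids to NKT cells, was also highest in hepatocytes (239 CPM), and Azgp1 stood there at 1135 CPM. Fcgrt, the neonatal Fc receptor, was highest in endothelial cells (128 CPM) and Hfe, which takes part in iron sensing, in macrophages (70.6 CPM). H2-T24 stood at 77.9 CPM in endothelial cells, and its values there were 76.4, 100 and 92.1 CPM in the controls and 61.1, 58.5 and 79.5 CPM in the knockouts (log2 fold change -0.43, SE 0.15), with overlap. H2-M3 had 37.7 CPM in B cells, Mr1 19.3 CPM in portal mesenchymal nuclei and H2-Q2 11.5 CPM in cholangiocytes. The remaining 5 listed heavy chains stayed under 10 CPM in every class.

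**Figure D5:**
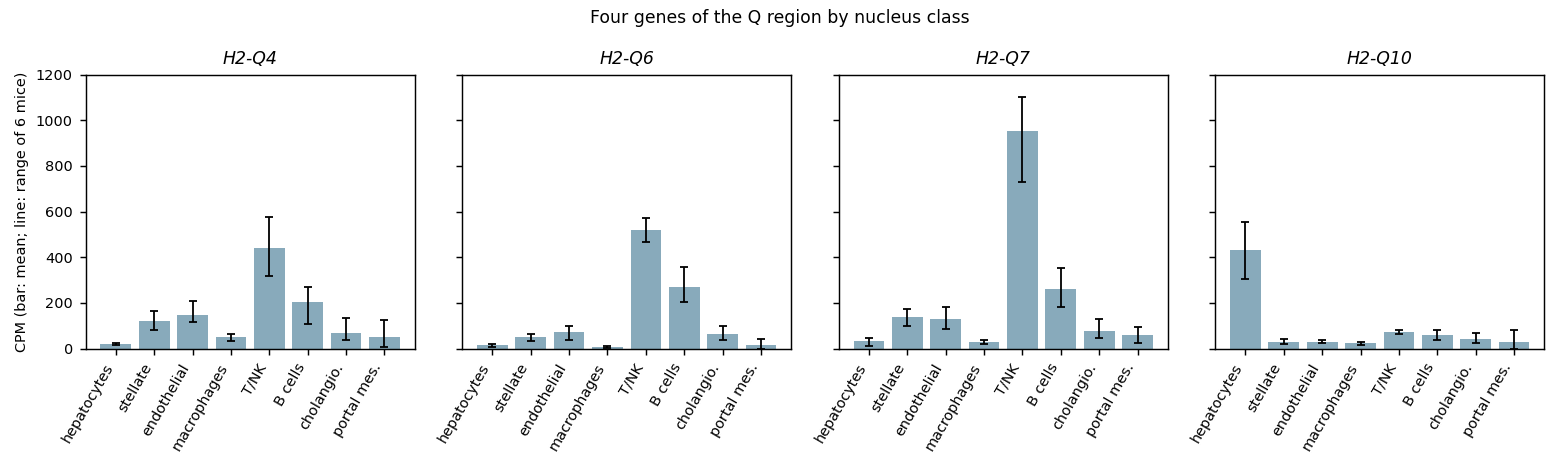
Mean CPM (bars; linear axis from 0) and range of 6 mice (lines) of H2-Q4, H2-Q6, H2-Q7 and H2-Q10 in 8 nucleus classes. H2-Q4, H2-Q6 and H2-Q7 peak in T/NK nuclei, at 439, 520 and 951 CPM, and H2-Q10 in hepatocytes at 434 CPM.

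Genes of peptide generation and loading are given by their most abundant listed genes. Psme4, a proteasome activator, had 254, 260 and 254 CPM in knockout endothelial cells against 279, 240 and 253 CPM in controls, a log2 fold change of -0.01 (SE 0.10). Lnpep, an aminopeptidase that trims peptides, had -0.06 (SE 0.10) there and -0.14 (SE 0.10) in macrophages. In macrophages its knockouts (571 to 637 CPM) were all below the controls (640 to 679 CPM), as in 4.01% of genes. Of this list's 20 genes there, 2 were all lower and 4 all higher, the latter beside 4.68% of genes. Canx, a chaperone of new heavy chains, had -0.16 (SE 0.16) in hepatocytes. The list's median was 0.04 in endothelial cells, 0.11 in stellate cells, 0.09 in macrophages and -0.10 in hepatocytes, each over 20 tested genes. Psmb8, an immunoproteasome subunit picked after seeing its values, had 7.16, 7.19 and 7.55 CPM against 11.6, 10.6 and 14.4 CPM in stellate cells (0.74, SE 0.24). The list's 20 fold changes in that class ran from -0.29 to 0.74. In 5 of the 20 the knockouts were all higher and in 0 all lower, beside 4.78% and 4.74% of genes. Nothing is read from a gene picked in this way.

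Among interferon and NF-kB signalling genes the most abundant were Irf2, an interferon regulatory factor, Jak1, a kinase of interferon receptors, and in macrophages Nfkb1. Irf2 had log2 fold changes of 0.13 (SE 0.21) in hepatocytes, -0.21 (SE 0.14) in endothelial cells and -0.07 (SE 0.11) in macrophages. Jak1 had 0.03 (SE 0.19) in hepatocytes and -0.28 (SE 0.17) in endothelial cells, and Nfkb1 had 0.09 (SE 0.13) in macrophages. The list's median was 0.07 in endothelial cells over 21 genes, of which 13 were above 0, and its fold changes ran from -0.28 to 0.44. In 4 of the 21 the knockouts were all higher and in 1 all lower, the former beside 5.33% of genes. By edgeR 4 had an unadjusted p under 0.05, beside 4.27% of genes, and 0 passed. In hepatocytes 15 of 19 were above 0, with 3 all higher and 0 all lower, and in T/NK nuclei 4 of 18 were all higher and 1 all lower. Stellate cells, macrophages, B cells and cholangiocytes had 0 of either kind.

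Factors bound at class I promoters had list medians of 0.10 in hepatocytes, 0.07 in endothelial cells, 0.11 in macrophages and -0.08 in stellate cells. Setd2, a histone H3 methyltransferase on this list, had 0.10, -0.07 and -0.01 in hepatocytes, endothelial cells and macrophages (SE 0.15, 0.10 and 0.11). Creb1, a CRE-binding factor, had 0.01 (SE 0.11) in endothelial cells and -0.12 (SE 0.10) in macrophages. In macrophages its knockouts (206 to 225 CPM) were all below the controls (229 to 247 CPM), as in 4.01% of genes. Of this list's 11 genes there, 1 was all lower and 0 all higher. Nfyc, a subunit of the NF-Y complex that binds CCAAT, had -0.03 (SE 0.29) in hepatocytes. The list of receptors for class I also held the inhibitory receptor Lilrb4a, and being listed does not show that it binds class I. Lilrb4a was at 627, 713 and 626 CPM in control and 1006, 809 and 697 CPM in knockout macrophages (0.35, SE 0.14), with overlap. Pirb was at 221, 442 and 373 CPM against 309, 248 and 403 CPM (-0.11, SE 0.27). In T/NK nuclei 13 of the 15 listed receptors were tested, with 7 fold changes above 0 and a median of 0.08.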

How the data were processed

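Single-nucleus libraries were made with a 10x Genomics 3′ kit, per the labels' protocols. The deposited matrices hold raw UMI counts. Cell Ranger 7.0.1 and mm10 stand in the submitters' processing notes, and version 7.1.0 in the file headers. Neither source states whether introns or strand were used in counting.

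Nuclei with at least 500 genes, 1000 UMIs and under 5% mitochondrial UMIs were retained (26467), and 821 doublets called by scrublet at an expected rate of 0.06 were dropped. Leiden clustering (resolution 1, 3000 variable genes without Plvap, the members and the listed genes, 30 components, 15 neighbours; scanpy 1.11.5) gave 31 clusters, named from marker lists. Hepatocytes were exempt from the rule that left out clusters with over 90% of nuclei from 1 library. UMIs were summed per mouse and class. The summed UMIs were tested with edgeR 4.0.16 (TMM, filterByExpr, quasi-likelihood, threshold 0.05). The same fit was run on simulated counts with changes larger than any of the members'. That run therefore does not show how well changes of their size are found. CPM were computed on TMM-scaled totals, in place of the unscaled totals first planned for the levels. Within clusters, CPM are unscaled. Replicate numbers only name mice, and p-values set the group difference against the spread between mice, moderated across genes.

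The members, lists and tests were chosen with earlier results of these data known. For knockouts against controls, all members are named in each of the 7 tested classes. Of each list, genes past the threshold are named, or the 2 most abundant in hepatocytes, endothelial cells and macrophages, plus other class I chains of at least 10 CPM and, for B2m, H2-K1 and Nlrc5, the 5 genes with the most similar class means. Psmb8 was named outside this rule, after its values were seen. Not in the features were H2-T10, H2-Bl and Cd1d2. Of the feature identifiers, 32235 were found in GENCODE M21. Alternatives were DESeq2's size factors and test, library size alone, no filter, thinning to 1500 UMIs, doublets kept, listed genes kept in clustering, leaving out each mouse, leaving out control 1 and knockout 2, and, chosen after seeing the data, hepatocytes with cluster 6.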

Additional observations from a re-analysis of the deposited data

How the results depend on the processing

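Counts of members called, counts of listed genes called and the median member log2 fold change were recomputed in 8 sets of nuclei. Of these alternative values 329 kept their call or stayed within the spread between mice, 10 did not, and no median changed sign. The called counts were 0 in all 8 sets in the main setting. All but those given below stayed at 0, and each such 0 counts as kept. Keeping the listed genes in clustering could not change the sums over all nuclei. This tally is therefore no measure of how firm the fold changes are. In stellate cells 1 member (H2-Q4) passed without the low-count filter, among 58 of 22246 genes. In endothelial cells 2 members (H2-K1 and H2-Q7) passed by DESeq2, among 20 of 12988 genes. Without the filter 3 (these and H2-Q4) and 1 listed gene (H2-Q6) passed, among 70 of 23153 genes. Thinning to 1500 UMIs gave medians of 0.026 in hepatocytes, where 9 members were tested, 0.45 in stellate cells and 0.32 in macrophages, against 0.17, 0.34 and 0.25. Leaving out 1 mouse gave medians of 0.31 to 0.46 over all nuclei, the lowest without knockout 3, of 0.08 to 0.24 in hepatocytes, the lowest without knockout 3, and of 0.19 to 0.31 in macrophages, the lowest without knockout 2. Without control 1 and knockout 2 the macrophage median was 0.18. The cause was not tested. Library size alone moved the share of all genes above 0 from 48.2% to 59.7% over all nuclei, 49.6% to 60.5% in stellate cells and 49.6% to 60.3% in endothelial cells, and the members above 0 in hepatocytes from 6 to 7. Single members kept their sign under every alternative in 10 of 10 cases in stellate cells, 9 of 10 in endothelial cells and 5 of 10 in hepatocytes. Hepatocyte H2-Q7 went from -0.17 without control 1 to 0.45 without knockout 2. Counts were low for Tap1, Tap2 and Tapbp in cholangiocytes, with 19 to 74 UMIs. No paired analysis was possible because the labels give no number shared between groups.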

Other observations

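Nuclei outside the tested classes also carried class I RNA, given as CPM of the cluster's own total with the range over libraries of at least 5 nuclei. Plasmacytoid dendritic-like nuclei (88 nuclei, all 6 mice) held 825 CPM of H2-K1 (503 to 1196), 357 CPM of H2-Q7 (176 to 482) and 177 CPM of Nlrc5 (105 to 261). Nuclei of the cluster led by Top2a (168) held 538 CPM of H2-K1 and 218 CPM of Nlrc5 (192 to 312). Plasma cell-like nuclei (42) had 609 CPM of H2-K1 and 33.1 CPM of H2-T23, from 5 UMIs. In the 30 neutrophil-like nuclei H2-D1 stood at 1162 CPM from 56 UMIs, between 434 and 1891 CPM in the 4 libraries with enough nuclei. H2-K1 there came from 20 UMIs (415 CPM).

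Vessel-like nuclei led by Vwf and Bmx (cluster 15, 560 nuclei) had 556 CPM of H2-K1, 81.1 CPM of Tap2 (66.8 to 115) and 60.1 CPM of Tapbp. Nuclei led by Ccr2 and Ms4a4a (cluster 19, 261 nuclei) had 544 CPM of H2-K1 and 162 CPM of Nlrc5 (121 to 263), with 43.8 CPM of H2-Q7. Cluster 18, led by Dmbt1 and Klf5 and 96.2% from control 2, had 94 CPM of H2-K1, 6.35 CPM of H2-Q7 from 10 UMIs and 7.62 CPM of Nlrc5 from 12 UMIs.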
